A study of Rattus norvegicus with 6 samples.

Results

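The BCL2 family genes were followed in RNA-seq of rat myocardium after ischemia and reperfusion. The family was taken as 10 named genes, Bcl2, Bcl2l1, Mcl1, Bax, Bak1, Bbc3, Bcl2l11, Bid, Bad and Bcl2a1, chosen by gene symbol. Of these, 9 were found by symbol among the 28293 genes of the table and all 9 passed the filter on low values, and Bcl2 was not analysed here. The study examined myocardial ischemia/reperfusion injury in male rats of WT genotype. In the I/R group (n = 3), ligation closed the left anterior descending coronary artery for 30 min, and the heart was taken 6 h after release. The sham group (n = 3) carries the same 30 min and 6 h in its labels, and its treatment is given as sham. The tissue is labelled as myocardium, and neither the strain, the age nor the part of the ventricle that was sampled is given in the sources used here.

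Proteins of this family decide whether the outer mitochondrial membrane stays intact. Anti-apoptotic members hold the pore-forming effectors Bax and Bak1 in check, and BH3-only members relieve that restraint or activate the effectors directly, after which cytochrome c leaves the mitochondria and caspases are activated. In the heart, loss of cardiomyocytes by this route is a known part of reperfusion injury. Much of the control lies in protein binding, cleavage and phosphorylation, which mRNA values do not show.

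The values are FPKM, fragments per kilobase of gene corrected for library size. Levels can be set side by side between genes as far as the gene lengths used are right. The depth recovered from the steps in the values was 42221073 to 49848438 fragments in the sham samples and 36848184 to 39480833 fragments in the I/R samples. The 13 mRNAs of the mitochondrial genome took 80.1% to 86.2% of all FPKM in sham and 61.8% to 71.5% in I/R, so the groups did not overlap in the share left for the nuclear genes. Of the cardiomyocyte markers, 5 of the 6 tested were called higher in I/R, against 25.5% of all genes tested. The summed FPKM of the cardiomyocyte markers was 3219 to 10510 in sham and 21170 to 30371 in I/R. Ryr2 was the marker not called, none of the 6 was at 0, and Pln was not analysed here. Of the neutrophil markers, 4 of the 5 tested were called higher, against 25.5% of all genes tested. Il1r2 and Mmp8 were among them, and Csf3r was not called. In sham, Il1r2, Mmp8 and Csf3r averaged 0.223, 0.176 and 0.258 FPKM, so they passed the filter only through I/R. The summed FPKM of the neutrophil markers was 13.05 to 17.9 in sham and 29.8 to 86.5 in I/R. Cxcr2, Mmp9 and Fpr1 lay under the filter. The summed endothelial markers spanned 173 to 227 in sham and 170 to 213 in I/R. In this bulk tissue, fewer cells of a type and less RNA per cell cannot be told apart, and the part of these shifts in the results on the family was not tested.

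The prosurvival genes Bcl2l1 and Mcl1 and the BH3-only gene Bid were higher in I/R, each by a little over 1 on the log2 scale, while the effectors Bax and Bak1 were not called and overlapped between the groups. In all, 3 of the 9 members were called higher and 0 lower by limma with Benjamini-Hochberg adjustment at a threshold of 0.05. Over all 10942 genes tested, 25.5% were called higher and 7.36% lower, so the share of members called higher was near the background. At an unadjusted p under 0.05 the count lower was also 0, as it was for voom in limma. In 4 of the 9 members every I/R sample lay above every sham sample, against 37.2% of all genes tested. In 1 of the 9, Bbc3, every I/R sample lay below every sham sample, against 13% of all genes tested. The median gene had a log2 fold change of 0.29, against which the members' values can be read. That median depended on the filter, at 0.08 with no filter and 0.66 among the 3784 genes averaging at least 5 FPKM. Of those 3784 genes, 1892 were called higher. Against the median of 0.66, Mcl1 was above by 0.49 and Bcl2l1 by 0.57, with Bax at −0.52 and Bak1 at −0.53.

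**Figure D1:**
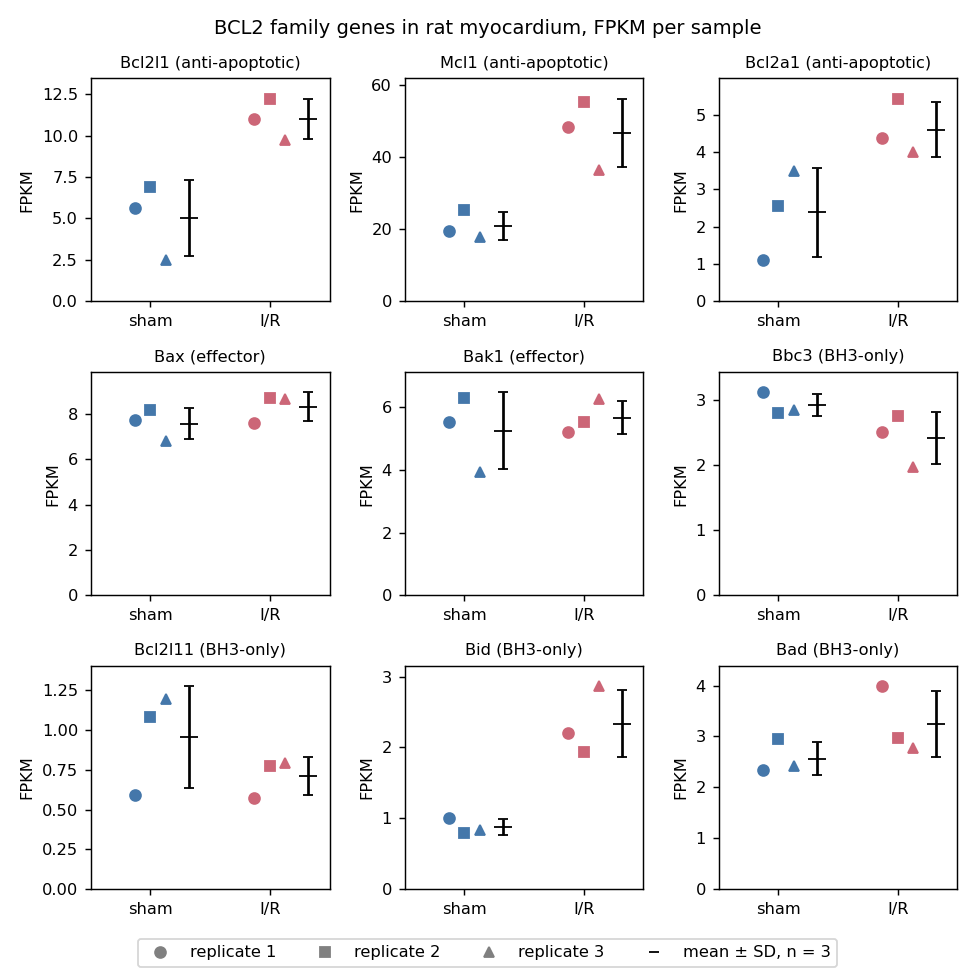
FPKM (vertical axes, from 0) of the 9 BCL2 family genes in the sham and I/R samples, with 1 point per sample and the mean ± SD (n = 3) as a bar. Bcl2l1, Mcl1, Bcl2a1 and Bid do not overlap between groups and are higher in I/R, Bbc3 does not overlap and is lower, and Bax, Bak1, Bcl2l11 and Bad overlap.

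Among the anti-apoptotic members, Mcl1 encodes a short-lived protein that binds Bak1 and several BH3-only proteins. Its level in FPKM was 19.5, 25.3 and 17.9 in sham samples 1 to 3 and 48.3, 55.2 and 36.4 in I/R samples 1 to 3. The lowest I/R sample lay well above the highest sham sample. The mean was 20.9 ± 3.89 in sham and 46.6 ± 9.53 in I/R (SD, n = 3), a log2 fold change of 1.15 (SE 0.25, 95% interval 0.59 to 1.72) with an adjusted p of 0.00915 in limma. These values rested on 1731 to 2650 fragments per sham sample and 2850 to 4590 per I/R sample, for which counting alone gives a spread of 2.23% in sham against the 18.6% observed. The call was lost under quantile normalization (0.24 on the log2 scale, adjusted p = 0.446 in limma) and after rescaling without the mitochondrially encoded mRNAs (0.37, adjusted p = 0.302).

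Bcl2l1 encodes Bcl-xL, which restrains Bax and Bak1, and by splicing a short form with the opposite effect. Gene-level values do not separate these forms. Its FPKM was 5.63, 6.93 and 2.50 in sham and 11.0, 12.2 and 9.76 in I/R. All I/R samples lay above all sham samples, and sham 3 lay apart from the other sham samples on the low side. The mean rose from 5.02 ± 2.28 to 11.0 ± 1.23 (SD, n = 3), a log2 fold change of 1.23 (SE 0.35, 95% interval 0.45 to 2.01; adjusted p = 0.0236 in limma). The spread in sham was 45.4% of the mean, while counting of 732 to 2112 fragments gives 2.83%. Without sham 3 the log2 fold change was 0.80 (adjusted p = 0.0649 in limma), without I/R 1 it was 1.23 (0.0576), and without I/R 2 it was 1.15 (0.0592), none of which passed the threshold. It was also lost with no filter on low values (adjusted p = 0.0652) and under 3 of the 4 other scalings.

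Bcl2a1 encodes Bfl-1/A1, a prosurvival protein known mainly from blood cells, including neutrophils. Its FPKM was 1.12, 2.55 and 3.49 in sham and 4.39, 5.44 and 3.999 in I/R. The groups did not overlap, but sham 3 and I/R 3 lay close together. The mean was 2.39 ± 1.20 in sham and 4.61 ± 0.743 in I/R (SD, n = 3), and the log2 fold change of 1.04 (SE 0.37, 95% interval 0.23 to 1.86) narrowly missed the threshold, with an adjusted p of 0.0518 in limma. With the replicate number as a block the adjusted p was 0.0272, and without sham 3 it was 0.0312 with a log2 fold change of 1.38. Without sham 1, the lowest sample, the log2 fold change was 0.60 (adjusted p = 0.113 in limma). It is the member with the fewest fragments, 33 to 117 per sham sample and 104 to 150 per I/R sample, yet counting gives a spread of only 12.4% in sham against the 50.1% observed. The summed neutrophil markers were 17.9, 16.2 and 13.05 FPKM in sham and 29.8, 66.0 and 86.5 in I/R, and their part in the values of Bcl2a1 was not tested.

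The effectors Bax, which moves from the cytosol to mitochondria on activation, and Bak1, which resides in the outer membrane, were not called. Bax was at 7.72, 8.16 and 6.82 FPKM in sham and 7.61, 8.72 and 8.65 in I/R. Its mean was 7.56 ± 0.686 in sham and 8.33 ± 0.621 in I/R (SD, n = 3), and the log2 fold change of 0.14 (SE 0.21, 95% interval −0.33 to 0.60) had an adjusted p of 0.639 in limma. The groups overlapped, with I/R 1 inside the sham range. Bak1 was at 5.54, 6.31 and 3.92 FPKM in sham and 5.22, 5.54 and 6.26 in I/R. Its log2 fold change was 0.13 (SE 0.24, 95% interval −0.41 to 0.67; adjusted p = 0.705 in limma), from means of 5.26 ± 1.22 and 5.67 ± 0.531 (SD, n = 3), and all 3 I/R samples lay within the sham range. The intervals leave room for changes of either sign up to about the bounds given, and the sign of both values turned with the scaling, to −0.11 for Bax and −0.12 for Bak1 after median centring. Without sham 3, the lowest sample for Bak1, its log2 fold change was −0.06.

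Of the 4 BH3-only members, Bid was called. Bid is cleaved by caspase-8 to a fragment that carries death receptor signals to mitochondria. Its FPKM was 1.01, 0.796 and 0.837 in sham and 2.21, 1.94 and 2.87 in I/R. The sham samples lay close together and every I/R sample was well above them. The mean was 0.880 ± 0.112 in sham and 2.34 ± 0.477 in I/R (SD, n = 3), with a log2 fold change of 1.30 (SE 0.25, 95% interval 0.74 to 1.86; adjusted p = 0.00583 in limma). Of all genes tested, 12.1% had a larger log2 fold change. With a pseudocount of 1 the log2 fold change was 0.82, below those of Mcl1 at 1.12 and Bcl2l1 at 1.07, so the order of these 3 members depended on the pseudocount. With 83 to 89 fragments per sham sample, counting alone gives a spread of 10.8% there, close to the 12.7% observed. Leaving out any single sample did not end the call, and rescaling without the mitochondrially encoded mRNAs did (log2 fold change 0.57, adjusted p = 0.186 in limma).

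Bbc3 encodes PUMA, a BH3-only protein induced by DNA damage and other stresses that can bind all the anti-apoptotic members. Its FPKM was 3.11, 2.79 and 2.85 in sham and 2.51, 2.76 and 1.97 in I/R. The I/R samples lay below the sham samples, though I/R 2 and sham 2 nearly met. The log2 fold change was −0.28 (SE 0.22, 95% interval −0.77 to 0.22; adjusted p = 0.359 in limma), from 2.92 ± 0.172 in sham to 2.41 ± 0.400 in I/R (SD, n = 3). Only the rescaling without the mitochondrially encoded mRNAs called it lower among the alternatives run, with a log2 fold change of −1.03 (adjusted p = 0.0152 in limma).

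Bcl2l11 encodes Bim, an activator of the effectors that also binds the anti-apoptotic members. It was the least abundant member in I/R, at 0.575, 0.773 and 0.792 FPKM, against 0.591, 1.08 and 1.19 in sham. The log2 fold change of −0.34 (SE 0.33, 95% interval −1.08 to 0.41) was about as large as its error, with an adjusted p of 0.463 in limma, and replicate 1 was the lowest sample of both groups. The means were 0.956 ± 0.321 in sham and 0.713 ± 0.120 in I/R (SD, n = 3). Bad is held inactive by phosphorylation downstream of survival kinases. It was at 2.33, 2.94 and 2.42 FPKM in sham and 3.99, 2.98 and 2.76 in I/R, with I/R 1 apart on the high side. Its means were 2.56 ± 0.329 in sham and 3.24 ± 0.653 in I/R (SD, n = 3), and its log2 fold change of 0.32 (SE 0.23, 95% interval −0.20 to 0.83; adjusted p = 0.315 in limma) was close to the 0.29 of the median gene. Exact permutation tests of single members, two-sided over 3 samples against 3, gave p = 0.3 for Bcl2l11, 0.2 for Bad, 0.3 for Bax and 0.8 for Bak1. The exact tests gave p = 0.1 for the 5 members without overlap, the smallest p possible for 3 samples against 3 without pairing.

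The promoters of the 3 members called higher are shown so that their short motifs can be compared. RefSeq promoter windows, from 250 bases before to 50 bases after the annotated start in build GRCr8, were found for 8 of the 10 members, with 4 windows for Bcl2l1, and the windows of Bax and Bbc3 were not used here. The lines give the 250 bases before the start, 5′ to 3′ on the strand of the gene, at chr2:185907918-185908167 (plus strand) for Mcl1, chr3:161764776-161765025 (minus strand) for the first window of Bcl2l1 and chr4:155808320-155808569 (minus strand) for Bid. Capitals mark every match, on either strand, to any of 10 motifs searched.
Mcl1: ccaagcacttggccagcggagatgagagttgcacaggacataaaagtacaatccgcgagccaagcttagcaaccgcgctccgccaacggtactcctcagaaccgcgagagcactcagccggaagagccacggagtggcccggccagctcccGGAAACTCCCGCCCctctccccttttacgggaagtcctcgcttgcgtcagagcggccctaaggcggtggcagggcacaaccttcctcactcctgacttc
Bcl2l1: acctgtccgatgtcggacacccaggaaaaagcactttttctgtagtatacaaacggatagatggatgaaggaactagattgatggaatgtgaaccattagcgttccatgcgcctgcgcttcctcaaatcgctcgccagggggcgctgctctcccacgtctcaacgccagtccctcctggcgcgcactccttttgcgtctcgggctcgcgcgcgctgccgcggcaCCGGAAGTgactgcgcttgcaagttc
Bid: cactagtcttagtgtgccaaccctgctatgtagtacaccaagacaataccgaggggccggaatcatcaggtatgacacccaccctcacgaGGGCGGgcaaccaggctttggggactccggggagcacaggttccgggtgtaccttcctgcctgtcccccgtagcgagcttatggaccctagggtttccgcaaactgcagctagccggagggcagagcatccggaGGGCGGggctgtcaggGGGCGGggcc

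The GC box GGGCGG, a binding motif of Sp family factors, was in 33.1% of the 33469 windows of all genes. It began at position −91 in Mcl1, read on the other strand, and at −160, −26 and −10 in Bid, counted with the start as position 0. The capitals of Mcl1 also cover an NF-kB site at −99, a motif present in 7.51% of windows, which overlaps the GC box. The capitals of Bcl2l1 are the ETS core CCGGAAGT at −26, present in 3.81% of windows, and the second window of Bcl2l1 held a GC box. GC boxes were also found in the windows of Bak1 and Bcl2l11, which were not called. The other motifs searched were the cAMP response element TGACGTCA (1.83% of windows), the AP-1 site TGANTCA (7.33%), the E-box CACGTG (6.42%), the STAT site TTCNNNGAA (8.87%), the heat shock element core GAANNTTC (8.59%), the TATA box TATAAA (14.2%) and the CArG box (1.64%). Of these, the window of Bcl2a1 held an AP-1 site, that of Bcl2 a TATA box, that of Bad a STAT site and the last windows of Bcl2l1 the same pair of STAT sites, since these windows overlap. A match describes the letters only.

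The order of the levels changed between the groups. In sham, Mcl1 was the most abundant member at a mean of 20.9 FPKM, followed by Bax at 7.56, and both stood clear of the next gene in all 3 samples. From Bak1 at 5.26 through Bcl2l1 at 5.02, Bbc3 at 2.92, Bad at 2.56, Bcl2a1 at 2.39 and Bcl2l11 at 0.956 to Bid at 0.880, each gene's range overlapped that of its neighbour. In I/R, Mcl1 at 46.6 FPKM was followed by Bcl2l1 at 11.0, Bax at 8.33 and Bak1 at 5.67, and the first 3 did not overlap with the gene after them. Bak1 overlapped with Bcl2a1 at 4.61, the range of Bad at 3.24 nearly touched those of both its neighbours, Bbc3 at 2.41 and Bid at 2.34 overlapped, and Bcl2l11 at 0.713 was last. In FPKM, Bcl2l1 thus stood below Bax in all sham samples and above it in all I/R samples. This crossing depends on the gene lengths behind FPKM, implied as 6116 bases for Bcl2l1 and 1986 for Bax. The recovered fragments of Bcl2l1 exceeded those of Bax in every sham sample, at 732 to 2112 against 647 to 808. Bid moved from a level like that of Bcl2l11 to a level like that of Bbc3.

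Ratios of an anti-apoptotic member to an effector within a sample do not change when all genes of the sample are multiplied by the same factor. The ratio of Bcl2l1 to Bax in FPKM was 0.730, 0.849 and 0.366 in sham and 1.45, 1.40 and 1.13 in I/R. All sham samples were below 1 and all I/R samples above 1, a mark whose place depends on the gene lengths behind FPKM. The ratio of Mcl1 to Bax was 2.52, 3.09 and 2.62 in sham and 6.34, 6.33 and 4.21 in I/R. The ratio of Mcl1 to Bak1 was 3.52, 4 and 4.56 in sham and 9.25, 9.97 and 5.82 in I/R. On the log2(FPKM + 0.1) scale these ratios were higher in I/R by 1.09, 1.01 and 1.02, in that order. Quantile normalization, which moves each gene by its rank, gave 1.14, 0.65 and 0.51 for the same ratios, a check added after seeing the data. No ratio overlapped between groups. Bcl2l1 and Mcl1 alone did not overlap either, as in 37.2% of all genes tested, so the ratios are no separate result. How often ratios of other genes do not overlap was not computed. Each ratio had a two-sided exact permutation p of 0.1, also 0.1 after adjustment over the 3 ratios. This is the smallest value possible with 3 samples against 3. The ratios share Mcl1 or Bax and are not independent of each other. They compare mRNA levels, and say nothing of protein.

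**Figure D2:**
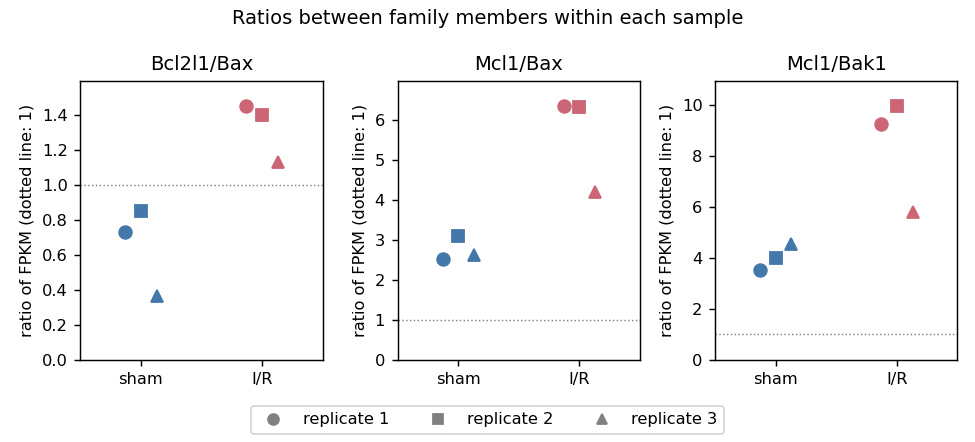
Ratio of FPKM values (vertical axes, from 0) of Bcl2l1 to Bax, Mcl1 to Bax and Mcl1 to Bak1 in each sham and I/R sample, with 1 point per sample and a dotted line at a ratio of 1. In all 3 panels the I/R samples lie above the sham samples, and Bcl2l1 passes from below Bax (0.366 to 0.849) to above it (1.13 to 1.45).

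Summed over the members of a role, the 3 anti-apoptotic genes came to 26.2, 34.7 and 23.9 FPKM in sham and 63.7, 72.9 and 50.2 in I/R. Most of this sum is Mcl1. The 2 effectors came to 13.3, 14.5 and 10.7 in sham and 12.8, 14.3 and 14.9 in I/R, so their sums overlapped. The 4 BH3-only genes came to 7.04, 7.61 and 7.30 in sham and 9.27, 8.44 and 8.39 in I/R, where Bid and Bad had higher means and Bbc3 and Bcl2l11 lower ones.

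The wider set of genes with BCL2 homology held 13 further genes, of which 9 were tested. Of these, 4 were called higher and 2 lower, against 25.5% and 7.36% of all genes tested, with a median log2 fold change of 0.63 against 0.29 over all genes. Bok, an effector-like member, rose from 1.54, 1.45 and 1.21 FPKM in sham to 4.07, 5.26 and 6.36 in I/R, a log2 fold change of 1.81 (SE 0.24; adjusted p = 0.0023 in limma). Pmaip1, which encodes the Mcl1-binding BH3-only protein Noxa, rose from 0.795, 1.36 and 1.13 to 2.53, 5.40 and 2.96 FPKM, a log2 fold change of 1.60 (SE 0.32; adjusted p = 0.0068 in limma). Both are known as proapoptotic. Bcl2l13, a mitochondrial protein also known as a mitophagy receptor, had a log2 fold change of 1.01 (SE 0.31; adjusted p = 0.0306 in limma). The remaining gene called higher was the anti-apoptotic Bcl2l2, chosen for mention after its values were seen, at 2.37, 3.33 and 2.58 FPKM in sham and 4.85, 4.07 and 4.14 in I/R.

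Of the genes called lower, Bcl2l15 went from 0.780, 1.09 and 1.23 FPKM in sham to 0.0639, 0.417 and 0.158 in I/R. Its log2 fold change was −1.99 (SE 0.48, adjusted p = 0.0127 in limma). It rested on only 28 to 50 fragments per sham sample and 2 to 14 per I/R sample. With an I/R mean of 0.213 FPKM, Bcl2l15 passed the filter only through sham. Bnip3l, a mitophagy receptor of the outer mitochondrial membrane, went from 7.59, 8.96 and 9.80 to 5.82, 5.30 and 4.62 FPKM, a log2 fold change of −0.73 (SE 0.22; adjusted p = 0.0292 in limma). Both were lower in every I/R sample, but neither was called lower without sham 2 or without sham 3, and Bnip3l was not called without I/R 2, without I/R 3 or in TPM. Bcl2l10, Bik and Bcl2l14 lay under the filter, with means below 0.5 FPKM, and Hrk was not analysed here. Only Bok and Pmaip1 kept a call of higher without sham 1, without sham 3 or without I/R 1, and after rescaling without the mitochondrially encoded mRNAs the set held 1 gene called higher, Bok, and 4 called lower, with a median of −0.11.

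**Figure D3:**
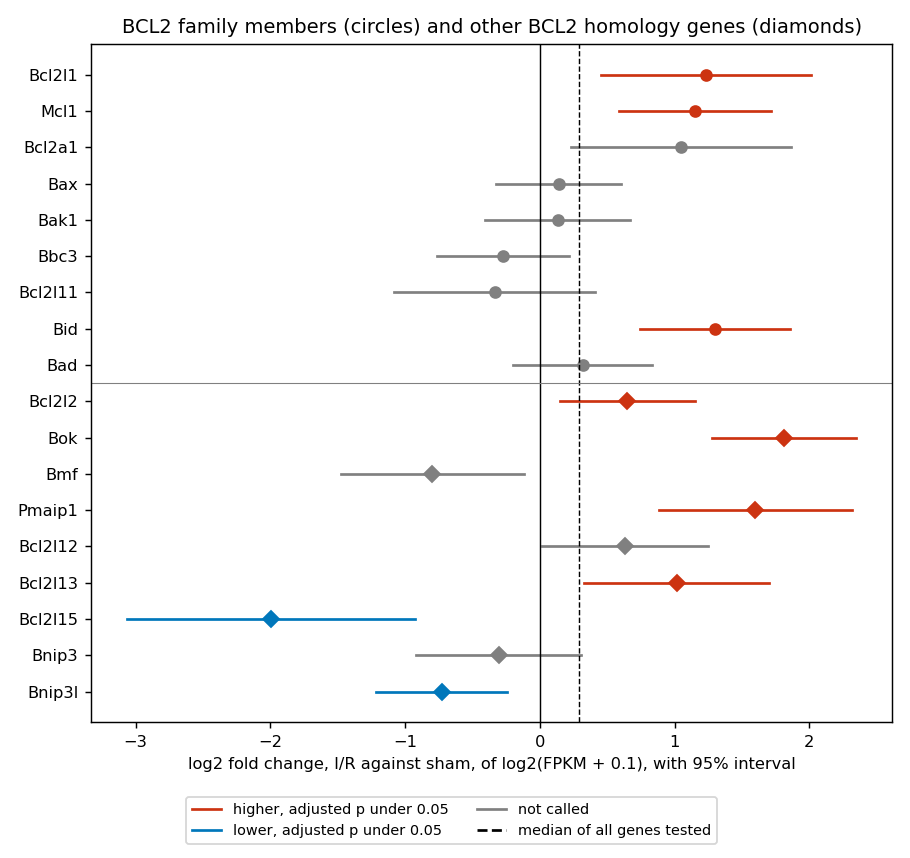
Log2 fold change of I/R against sham on the log2(FPKM + 0.1) scale (horizontal axis) with its 95% interval for the 9 BCL2 family members tested (circles) and 9 other BCL2 homology genes (diamonds), coloured by the limma call, with a dashed line at the median of all genes tested, 0.29. Bok at 1.81 and Pmaip1 at 1.60 lie above every member, whose values reach 1.30 for Bid. Bcl2l15 at −1.99 is the lowest gene and rests on 2 to 14 fragments per I/R sample.

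Downstream of the outer membrane, 16 genes of mitochondrial release and execution were followed, of which 14 were tested. In all, 7 were called higher and 0 lower, against 25.5% and 7.36% of all genes tested, with a median log2 fold change of 0.99. The 3 with the smallest adjusted p encode proteins of the mitochondria. Endog, a mitochondrial nuclease, was at 2.50, 1.09 and 1.53 FPKM in sham and 34.7, 10.2 and 11.0 in I/R, a log2 fold change of 3.20 (SE 0.46; adjusted p = 0.0029 in limma). Cycs, which encodes cytochrome c, was at 43.3, 23.6 and 20.6 in sham and 184, 106 and 75.4 in I/R, a log2 fold change of 2.03 (SE 0.38; adjusted p = 0.0054 in limma). Vdac1, the channel of the outer membrane, was at 15.2, 6.99 and 6.07 in sham and 58.9, 26.9 and 27.9 in I/R, a log2 fold change of 2.02 (SE 0.40; adjusted p = 0.0067 in limma).

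In each of these 3 genes replicate 1 was the highest sample of its group, as it was for the summed cardiomyocyte markers, at 10510 in sham 1 and 30371 in I/R 1. Cycs and Vdac1 are abundant in working cardiomyocytes, and the part of the marker shift in the values of the 3 genes was not tested. Diablo and Apaf1, the antagonist of caspase inhibitors and the scaffold of the apoptosome, lay under the filter.

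Upstream, 16 genes known to act on family members were followed, of which 14 were tested, with E2f1 and Huwe1 not analysed here. Of these, 5 were called higher and 0 lower, against 25.5% and 7.36% of all genes tested, with a median log2 fold change of 0.71. Bag3, a co-chaperone that binds BCL2 proteins and supports the sarcomere, went from 30.0, 13.6 and 11.9 FPKM in sham to 116, 76.3 and 68.5 in I/R, a log2 fold change of 2.32 (SE 0.37; adjusted p = 0.0035 in limma). Pim1, a kinase that phosphorylates Bad, went from 1.07, 1.39 and 1.04 to 5.54, 2.78 and 4.03 FPKM, a log2 fold change of 1.69 (SE 0.28; adjusted p = 0.0039 in limma). Bag1, a co-chaperone first known as a partner of BCL2, went from 35.1, 19.4 and 22.5 to 74.3, 53.1 and 46.6 FPKM, a log2 fold change of 1.19 (SE 0.29; adjusted p = 0.0138 in limma). Each of the 3 was higher in every I/R sample. Without sham 3 the calls were 2, Bag3 and Pim1, and the same genes were called higher after rescaling without the mitochondrially encoded mRNAs, where 2 others, Itm2b and Usp9x, were called lower and the median was −0.03.

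**Figure D4:**
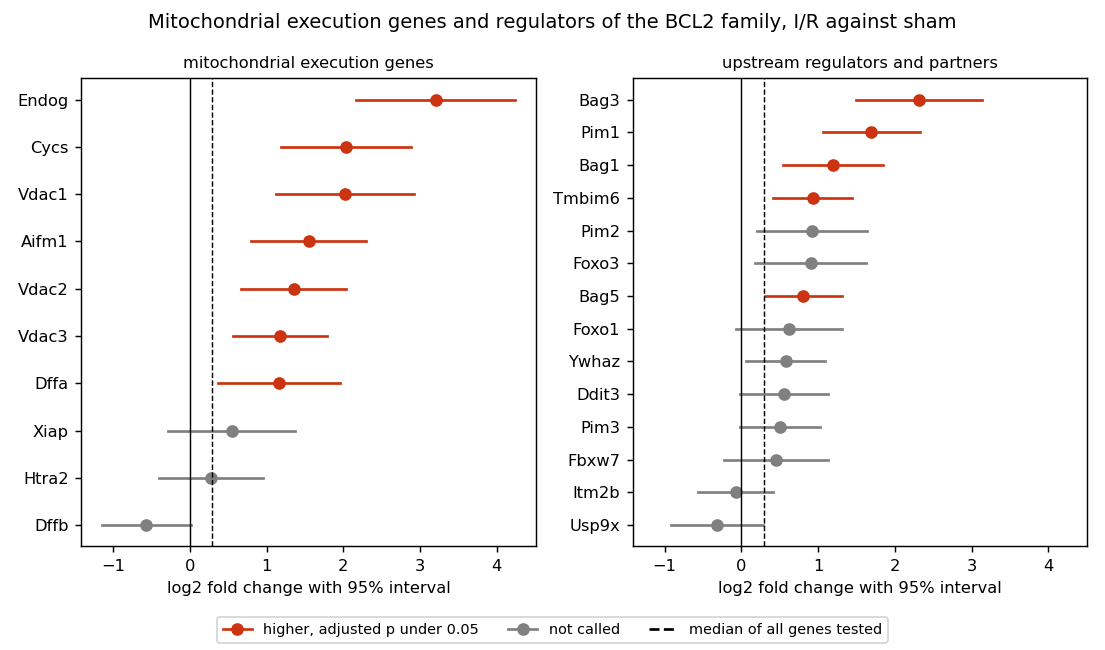
Log2 fold change of I/R against sham (horizontal axes) with its 95% interval for 10 of the 14 mitochondrial execution genes tested (left) and the 14 upstream regulators and partners tested (right), with a dashed line at the median of all genes tested, 0.29. Red points, 7 on the left and 5 on the right, were called higher by limma, with Endog at 3.20 and Bag3 at 2.32 the highest of each panel; under the rescaling without mitochondrially encoded mRNAs these counts were 4 and 2.

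How many members were called depended on the total that each sample was scaled to. With the FPKM as deposited, 77.6% of all calls were higher, and this share was 87.3% in TPM, 56.5% after median centring, 48.0% after quantile normalization and 21.7% after rescaling without the 13 mitochondrially encoded mRNAs. The log2 fold change of the median gene moved from 0.29 to 0.48, 0.04, −0.02 and −0.46 in the same order. Of the members, Bid and Mcl1 were called higher after median centring, Bid alone after quantile normalization, and none after the rescaling without mitochondrially encoded mRNAs, where Bbc3 was called lower. In TPM the members called higher were Bcl2l1, Mcl1, Bid and Bcl2a1.

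TPM, median centring and the rescaling multiply all genes of a sample alike, so a member's distance from the median gene is nearly fixed under them by construction and is no sign of stability. Bid was above the median of all genes by 1.01 with the FPKM as deposited, 1.02 in TPM, 1.23 after quantile normalization and 1.03 after the rescaling. Bcl2l1 was above it by 0.94, 0.94, 0.76 and 0.92 in the same settings, and Mcl1 by 0.86, 0.87, 0.27 and 0.83. Bax lay near the median gene or below it, at −0.15, −0.15, −0.38 and −0.18. Bbc3 lay below it throughout, at −0.57, −0.57, −0.48 and −0.57. In these 4 settings and after median centring, Bcl2l1, Mcl1, Bcl2a1 and Bid lay above the median gene, Bad close to it, and Bax, Bak1, Bbc3 and Bcl2l11 below it.

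**Figure D5:**
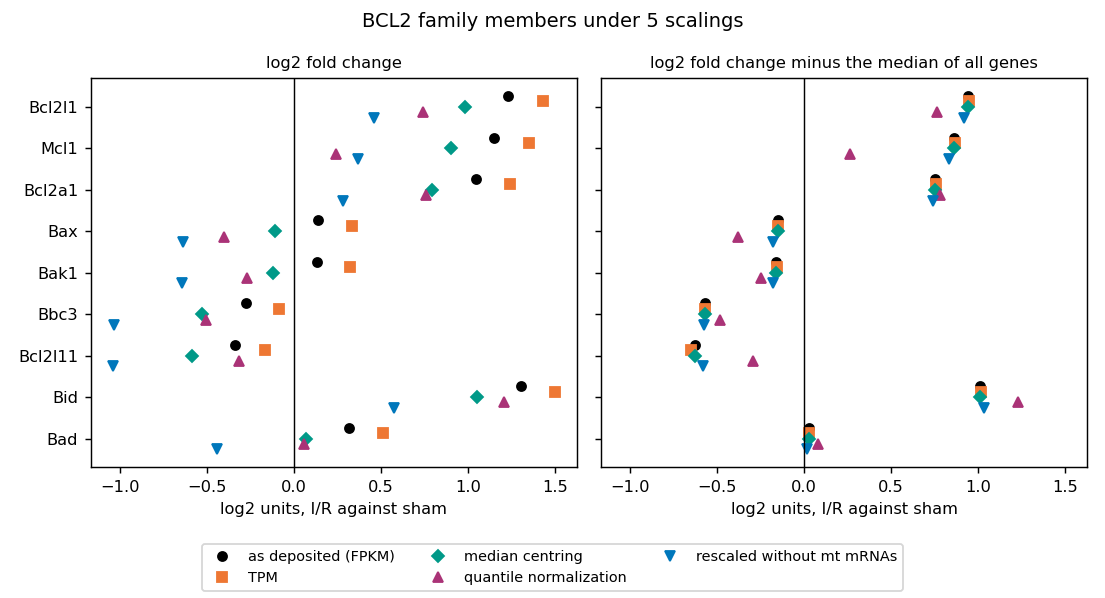
Log2 fold change of I/R against sham (left) and the same minus the median of all genes tested (right), in log2 units, for the 9 BCL2 family members under 5 scalings, marked by colour and shape. On the left the points of a gene spread over about 1 log2 unit and those of Bax, Bak1 and Bad lie on both sides of 0; on the right 4 of the scalings nearly coincide by construction, since each multiplies all genes of a sample alike, and quantile normalization, the remaining one, puts Mcl1 at 0.27.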

How the data were processed

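RNA-seq of myocardium from 3 sham and 3 I/R samples was analysed. The authors deposited FPKM values per gene and sample. The labels name a stranded total RNA kit, and STAR and HTSeq come from the submitters' processing notes; versions, genome build and strand setting are not given in the sources used here. The labels number the replicates without saying that each is a separate rat, so p-values measure the spread between these samples.

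Rows with the same symbol were summed (30452 rows, 7092 without a symbol, 28293 genes). Log2(FPKM + 0.1) of 10942 genes averaging 0.5 FPKM or more was fitted with limma 3.58.1 in R 4.3.3 (lmFit, eBayes with trend), with Benjamini-Hochberg adjustment over these genes and a threshold of 0.05. A fold change on this scale understates the change of low genes. The fit was tested on simulated data. Standard errors and 95% intervals are those of limma. Single members and ratios were compared by two-sided exact permutation tests.

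The total fragments were recovered from the FPKM steps: of 10981 rows with a mean FPKM of at least 0.5, 100.0% gave whole fragments in every sample within 0.02 of a fragment. Counting spreads cover counting error only. Alternatives were other pseudocounts, filters, scalings (TPM among them), no trend, a replicate block, leaving out each sample, and, added after seeing the data, voom in limma on the recovered fragments. Same-numbered samples deviated together (correlations of 0.20, 0.12 and 0.12 over genes, all over 0.1), although sham 3 correlated as highly with I/R 2 (0.12). The labels do not say whether the numbers pair the samples. Neither the main fit nor the permutation tests use a pairing, and the replicate block was run only as an alternative. Over 3 pairs the smallest two-sided p of an exact test would be 0.25.

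The members and lists were chosen with earlier results of these data known. All 10 members were to be named, and of each other list the 3 genes called higher and the 3 called lower with the smallest adjusted p, with any gene not analysed or under the filter; exceptions are marked. Besides the lists reported with the results, 2 of 7 fibroblast markers were called higher, 2 of 8 monocyte and macrophage markers higher and 2 lower, and 1 of 4 lymphocyte markers lower. Over all genes tested, the shares were 25.5% higher and 7.36% lower. Some genes of the lists are counted but not reported singly here. The study's other assays were not analysed here.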

Additional observations from a re-analysis of the deposited data

How the results depend on the processing

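Mcl1 kept its call under 16 of 18 alternatives, Bid under 16 of 17 and Bcl2l1 under 11 of 18; the causes of the changes were not tested. The members called higher (3) were 1 after quantile normalization and 0 after rescaling without the mitochondrially encoded mRNAs, which called 1 lower; leaving out single samples gave 2 to 3 higher and 0 lower. Over all genes, 2790 higher and 805 lower became 1441 and 1559 after quantile normalization, 793 and 2857 after that rescaling, and 1528 to 2557 and 309 to 881 when single samples were left out (lowest without sham 3 and without sham 2). The calls lower were 166 with a mean FPKM of at least 5, where fewer genes were tested, 504 in TPM and 1554 after median centring. Other BCL2 homology genes called higher (4) were 2 with no filter, 1 after the rescaling and 2 to 3 without single samples. At a mean of at least 5 the count was 0, because none of these 4 genes was tested there. Mitochondrial execution genes (7) were 4 after quantile normalization and 4 after the rescaling. Upstream genes (5) were 8 in TPM, 2 after the rescaling and 2 to 6 without single samples. At a mean of at least 5 they were 3, where Pim1 and Bag5 were not tested. Signs turned for Bax after median centring (−0.11), quantile normalization (−0.40) and the rescaling (−0.64), for Bak1 in the same settings (−0.12, −0.27 and −0.64) and without sham 3 (−0.0627; 0.27 at most without a single sample), and for Bad after the rescaling (−0.44). Bcl2a1 was called with a pseudocount of 1 (adjusted p = 0.0472 in limma), in TPM (0.0228), with the replicate block (0.0272) and without sham 3 (0.0312). The replicate block gave 3085 genes higher and 895 lower and changed no other member's call. voom on the recovered fragments called 2930 higher and 863 lower, with the same 3 members higher. The planned ratio of Bcl2 to Bax was not run. With 3 samples a group, permutation tests cannot give a p under 0.1, and among the members depth limits Bid and Bcl2a1 most.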
